A study of Mus musculus with 12 samples.

Results

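The 10 genes described here code for subunits, inhibitors and direct targets of NF-kB, and they were measured by RNA sequencing in cultured neonatal mouse cardiomyocytes. They are the listed genes Nfkb1, Nfkb2, Rela, Relb, Nfkbia, Nfkbiz, Tnfaip3, Icam1, Vcam1 and Birc3, found by matching Ensembl identifiers to mouse symbols, and are 10 of 55416 genes in the table. All 10 were matched and all 10 passed the filter on low values, a mean of at least 1 over the libraries. There were 12 libraries in 4 groups of 3. The PBS control group received phosphate-buffered saline with a GapmeR negative control, and the PBS knockdown group received PBS with a GapmeR against lincRNA-p21. The PE control group received phenylephrine (PE) for 24 h with the negative-control GapmeR, and the PE knockdown group received PE for 24 h with the lincRNA-p21 GapmeR. A GapmeR is a short antisense oligonucleotide that directs cleavage of the RNA it pairs with, and PE is an alpha-1 adrenergic agonist used to induce hypertrophy of cardiomyocytes. All 12 libraries therefore came from cells that had been given a GapmeR. The labels give no strain, and do not say whether replicates came from separate animals or cultures, so each p-value reflects no more than how these libraries varied.

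NF-kB is a family of dimeric transcription factors built from Rela, Relb, Rel, and the products of Nfkb1 (p105 and p50) and Nfkb2 (p100 and p52). Inhibitor proteins such as the Nfkbia product IkB-alpha hold the dimers in the cytoplasm until an IkB kinase complex, activated by receptors for TNF, IL-1 or microbial products, marks them for degradation. Released dimers bind kappaB sites and induce chemokines, adhesion molecules and anti-apoptotic genes, and also their own inhibitors, which closes a feedback loop. In the heart the pathway is known for its part in inflammatory and hypertrophic signalling.

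Recovered reads in genes ran from 21325485 to 22139681 per library. The target, lincRNA-p21 (Trp53cor1), had normalised read counts of 59.8 to 70.6 in PBS control, 10.1 to 22.6 in PBS knockdown, 34.0 to 56.0 in PE control and 8.56 to 9.97 in PE knockdown libraries. It fell by 2.10 on the log2 scale in PBS (limma adjusted p = 0.000201) and fell by 2.03 in PE (limma adjusted p = 9.24e-05). Of the 12 libraries, 4 stood further from the other replicates of their group, measured as the root mean square log2 difference over genes with a mean of at least 50: PBS knockdown replicate 2 at 0.37, PE knockdown replicate 1 at 0.28, PBS knockdown replicate 1 at 0.27 and PBS control replicate 2 at 0.26. The other 8 lay between 0.15 and 0.20. Summed levels of 8 cardiomyocyte markers, as TPM (reads per exon length, scaled to the same sum in each library), were 18763 to 30555 in the 12 libraries, those of 10 fibroblast markers 1672 to 3310, of 10 endothelial markers 221 to 397 and of 10 macrophage and leukocyte markers 252 to 337. No marker of these lists was at 0 in all libraries, a criterion that is easily met at this read depth. RNA of these marker genes was thus present beside that of the cardiomyocyte markers, but which cells it came from was not measured.

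RefSeq promoter windows (GRCm38.p6, 250 bases before to 50 after a gene's start) were found for 6 of the 10 genes, in 9 windows. Those of Nfkb1, Relb, Nfkbiz and Vcam1 were not used here. The windows are shown because promoters of several of these genes are textbook examples of kappaB sites. Matches were therefore likely from the choice of genes alone, and they say nothing about the changes with PE. They were searched on both strands for the 10-base kappaB consensus and for GGAANTTCC, and the searches may match overlapping letters. The consensus was in windows of 3 of the 6 genes (Nfkb2, Nfkbia and Tnfaip3), and in windows of 9.55% of all 27025 genes with a window. By single windows it was in 5 of the 9, and in 8.46% of all 32851. All 3 Nfkb2 windows were among these 5. Nfkb2 windows 2 and 3 overlap and hold the same GGGACTTTCC site. The 5 windows are therefore not separate observations, and nothing is concluded from their share. GGAANTTCC was in windows of 3 of the 6 (Nfkbia, Tnfaip3 and Icam1), and in windows of 1.07% of all genes. A match describes letters only. Below, capitals mark matches to either pattern, read 5′ to 3′ along the gene's strand, and bases inside an annotated exon of the same gene were left out.
Nfkbia, chr12:55492648-55492897, minus strand: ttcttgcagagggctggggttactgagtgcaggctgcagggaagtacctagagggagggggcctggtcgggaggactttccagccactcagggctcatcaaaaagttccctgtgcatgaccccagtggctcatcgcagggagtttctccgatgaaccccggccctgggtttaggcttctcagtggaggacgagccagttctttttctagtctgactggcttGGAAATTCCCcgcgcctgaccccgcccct
Tnfaip3, chr10:19015411-19015547, minus strand: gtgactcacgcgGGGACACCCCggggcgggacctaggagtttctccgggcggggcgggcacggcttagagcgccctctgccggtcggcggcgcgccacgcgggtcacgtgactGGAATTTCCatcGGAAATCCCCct
Icam1, chr9:21015690-21015939, plus strand: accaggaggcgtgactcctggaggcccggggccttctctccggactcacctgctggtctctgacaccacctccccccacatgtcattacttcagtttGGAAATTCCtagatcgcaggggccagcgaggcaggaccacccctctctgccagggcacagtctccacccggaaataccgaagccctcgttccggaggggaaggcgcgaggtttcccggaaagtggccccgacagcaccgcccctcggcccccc
Nfkb2, second of 3 windows, chr19:46305445-46305694, plus strand: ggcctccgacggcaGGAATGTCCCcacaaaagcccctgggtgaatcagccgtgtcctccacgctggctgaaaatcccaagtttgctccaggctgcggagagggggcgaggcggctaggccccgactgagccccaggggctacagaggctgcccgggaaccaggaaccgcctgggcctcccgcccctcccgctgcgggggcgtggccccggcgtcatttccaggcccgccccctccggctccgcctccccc
Rela, chr19:5637291-5637482, plus strand, with no match: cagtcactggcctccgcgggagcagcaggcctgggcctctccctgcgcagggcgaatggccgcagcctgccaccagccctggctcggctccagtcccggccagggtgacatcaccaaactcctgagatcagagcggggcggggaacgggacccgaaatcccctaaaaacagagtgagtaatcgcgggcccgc

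The match in Nfkbia is centred 24.5 bases before the start, where the 9-base pattern lies inside the 10-base one. Tnfaip3 held consensus matches centred 120.5 and 7.5 bases before its start and a separate GGAATTTCC 20 bases before it. In Icam1 the GGAAATTCC lies 149 bases before the start, with no consensus match. In its first window Nfkb2 also held GGGAATTCCC and GGGGCTTTCC, centred 34.5 and 6.5 bases before the gene start used for that window. Its GGGACTTTCC is centred 14.5 bases after the start used for the second window, and 220.5 bases before the start used for the third. Rela and Birc3 had no match to either pattern in these windows.

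In cells with the control GapmeR, PE raised 5 of the 10 genes by 1.43-fold to 2.00-fold. They were the subunit Nfkb2, the inhibitors Nfkbia and Tnfaip3, the nuclear IkB gene Nfkbiz and the adhesion molecule Icam1. None of the 10 was called lower. In cells with the lincRNA-p21 GapmeR, PE raised the same 5 and also Vcam1 and Birc3, and again none was called lower. A gene was called at an adjusted p under 0.05 in limma fitted to log2(value + 1) of all 21799 genes tested, and folds are on that scale. Of all genes tested, PE called 25.4% in control cells (12.6% higher and 12.8% lower) and 27.4% in knockdown cells (13.4% higher and 14% lower). The median log2 change of the 10 genes was 0.41 in control and 0.40 in knockdown cells, against -0.005 and 0.005 over all genes tested. In bulk RNA, fewer cells of a type and less RNA per cell cannot be told apart.

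Among the subunits, Nfkb2 (p100/p52, the precursor and subunit of the non-canonical branch; chr19:46304320-46312385) was the one that rose. Its normalised read counts were 1324, 1252 and 1348 in PBS control and 2568, 2315 and 1984 in PE control libraries. In knockdown cells they were 1280.2, 1582 and 1203 with PBS and 2439, 2624 and 2459 with PE. Every PE library lay above every PBS library in both arms. The log2 changes were 0.80 ± 0.11 (SE, limma adjusted p = 2.15e-05) and 0.90 ± 0.11 (limma adjusted p = 5.62e-06). Nfkb2 shares 299 exon bases with Psd and 531 with AC114539.1, both on the opposite strand with mean counts of 433 and 66.2, and whether strand was used in counting is not given in the sources used here.

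Relb (the partner of p52; chr7:19606217-19629438) had counts of 561, 559 and 593 in PBS control and 726, 784 and 623 in PE control libraries, which did not overlap. Its log2 change of 0.31 ± 0.12 missed the threshold (limma adjusted p = 0.0677). Leaving out a single library gave it a call in 3 cases, with limma adjusted p of 0.0299 for replicate 2 of PBS knockdown, 0.0366 for the third PE control library and 0.0469 for the first PE knockdown library. In knockdown cells Relb had 588, 720.4 and 590.4 with PBS and 635, 826 and 742 with PE, with overlap, and its log2 change was 0.21 ± 0.12 (limma adjusted p = 0.214). Without replicate 2 of both PBS groups and replicate 1 of PE knockdown together, Relb was called in both arms, at 0.30 in control cells (limma adjusted p = 0.0165) and 0.41 in knockdown cells (limma adjusted p = 0.00335).

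Rela (the p65 transactivating subunit; chr19:5637483-5648130) had 1941, 2232 and 1974 in PBS control and 2053, 2003 and 1903 in PE control libraries. The groups overlapped, and its log2 change was -0.04 ± 0.13 with a 95% interval of -0.31 to 0.22. With the knockdown it had 1959, 2816 and 1965 in PBS and 2576, 2239.8 and 2083 in PE, a log2 change of 0.05 ± 0.13. The value of 2816 in PBS knockdown replicate 2 was the highest of the 12. Without that library the change in knockdown cells was 0.22, still not called.

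Nfkb1 (p105/p50; chr3:135584655-135691547) had 1841, 1672 and 1869 in PBS control and 1909, 1802 and 1715 in PE control libraries. The counts overlapped, and the log2 change was 0.01 ± 0.10 with a 95% interval of -0.19 to 0.21. With the knockdown it had 1616, 1915 and 1576 in PBS and 1492, 1559 and 1590.4 in PE, a log2 change of -0.13 ± 0.10 (limma adjusted p = 0.347). Of the 2 precursor genes, Nfkb2 was called in both arms and Nfkb1 in neither, a difference between genes that was not itself tested.

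**Figure D1:**
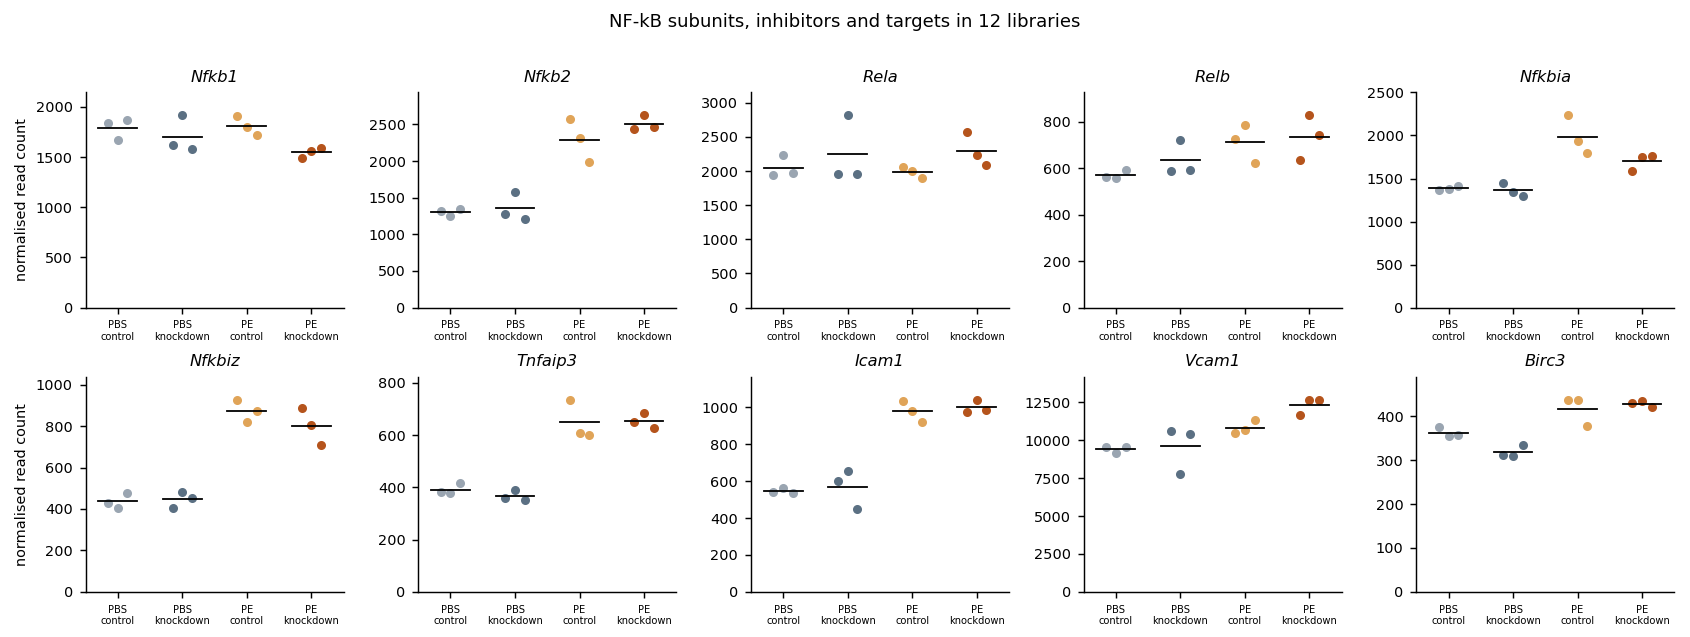
Normalised read counts (y axis, from 0 in each panel) of the 10 genes in 12 libraries; points are libraries, black bars are group means, and the x axis gives the 4 groups. Nfkb2, Nfkbia, Nfkbiz, Tnfaip3 and Icam1 lie higher in every PE library than in every PBS library of the same arm, while Nfkb1 and Rela overlap between PBS and PE.

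The inhibitors Nfkbia and Tnfaip3 and the nuclear IkB gene Nfkbiz rose with PE in both arms. Nfkbiz (IkB-zeta, a nuclear IkB that acts as a co-activator of secondary response genes; chr16:55811375-55838899) had the highest log2 change of the 10 genes in control cells. It had 429.8, 404 and 475 in PBS control and 928, 820.3 and 873 in PE control libraries. In knockdown cells the counts were 406, 479.9 and 455 with PBS and 889.5, 805 and 709 with PE. The PE libraries were all above the PBS libraries, with log2 changes of 1.00 ± 0.11 (limma adjusted p = 1.35e-06) and 0.84 ± 0.11 (limma adjusted p = 1.26e-05).

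Tnfaip3 (A20, a ubiquitin-editing enzyme that stops signalling upstream of the IkB kinase; chr10:19000910-19015657) had 381, 378 and 415 in PBS control and 736, 609.9 and 600.3 in PE control libraries. With the knockdown it had 359, 389.6 and 353 in PBS and 649.7, 685 and 628 in PE. No PE value reached down to a PBS value. The log2 changes were 0.72 ± 0.11 (limma adjusted p = 4.37e-05) and 0.83 ± 0.11 (limma adjusted p = 8.55e-06).

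Nfkbia (IkB-alpha; chr12:55489410-55492647) had 1363, 1380.4 and 1410.1 in PBS control and 2233, 1932 and 1798 in PE control libraries. In knockdown cells it had 1449.8, 1347 and 1294 with PBS and 1587, 1751 and 1765 with PE. The groups did not overlap in either arm, but the step was smaller with the knockdown by value. The log2 change was 0.52 ± 0.10 in control cells (limma adjusted p = 0.000505) and 0.32 ± 0.10 in knockdown cells (limma adjusted p = 0.0185). The difference of these changes was -0.20 ± 0.14 and was not called (limma adjusted p = 0.669). The call in knockdown cells was lost without PBS knockdown replicate 3 (limma adjusted p = 0.0746), PE knockdown replicate 2 (0.0724) or PE knockdown replicate 3 (0.074).

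Among the targets, Icam1 (an endothelial and leukocyte adhesion molecule that cytokines also induce in cardiomyocytes; chr9:21015985-21028817) rose in both arms. It had 541, 562 and 535 in PBS control and 1034, 982 and 918 in PE control libraries. With the knockdown it had 600.2, 653 and 450.1 in PBS and 976, 1042 and 988 in PE. All PE libraries were above all PBS libraries, with log2 changes of 0.84 ± 0.12 (limma adjusted p = 2.36e-05) and 0.83 ± 0.12 (limma adjusted p = 2.38e-05).

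Vcam1 (an integrin ligand; chr3:116109949-116129688) was the most abundant of the 10 by count. It had 9532, 9136 and 9539.6 in PBS control and 10460.1, 10686 and 11345 in PE control libraries, which did not overlap, with a log2 change of 0.20 ± 0.11 that was not called (limma adjusted p = 0.211). In knockdown cells it had 10595, 7804 and 10381 with PBS and 11647, 12668 and 12676 with PE. That change, 0.37 ± 0.11, was called (limma adjusted p = 0.0169). The low value of 7804 was in PBS knockdown replicate 2, and without that library the log2 change was 0.23 and not called (limma adjusted p = 0.0611). The call was also lost without PE knockdown replicate 2 (limma adjusted p = 0.0633) or replicate 3 (0.0607).

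Birc3 (cIAP2, a ubiquitin ligase that limits cell death at TNF receptors; chr9:7848699-7873186) had 375, 355 and 358 in PBS control and 436, 438 and 378 in PE control libraries. The groups were apart by a narrow margin, and the log2 change of 0.20 ± 0.10 was not called (limma adjusted p = 0.186). With the knockdown it had 311, 310.0 and 335 in PBS and 430.3, 435 and 422 in PE, a log2 change of 0.43 ± 0.10 that was called (limma adjusted p = 0.0043). The 2 changes did not differ beyond their error: the interaction was 0.23 ± 0.15 (limma adjusted p = 0.644).

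By a simpler count, all 3 PE libraries lay above all 3 PBS libraries for 8 of the 10 genes in control cells, where 21% of all genes tested did so, and for 7 of the 10 in knockdown cells, where 19.6% did. The reverse order, seen for 20.7% and 19.1% of all genes, occurred in none of the 10. Nfkb1 and Rela were the exceptions in both arms, joined by Relb in knockdown cells. These counts hold for normalised read counts only. As TPM, Relb, Vcam1 and Birc3 overlapped in control cells, and Nfkbia and Vcam1 in knockdown cells. The reverse order occurred as TPM for Rela in control cells (99.05 to 99.08 with PBS, 79.1 to 89.4 with PE). It also occurred for Nfkb1 in knockdown cells (20.9 to 26.9 with PBS, 16.0 to 18.7 with PE). When libraries were rescaled to the same total, the median log2 change of genes with a mean of at least 50 moved from 0.01 to -0.15 in control and from -0.004 to -0.15 in knockdown cells. The share of called genes that were lower then went from 50.5% to 71.9% and from 51.1% to 69.2%. Under this scaling the control-arm count stayed at 5, and the knockdown-arm count went from 7 to 4, with Nfkbia at 0.18, Vcam1 at 0.23 and Birc3 at 0.29 no longer called.

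Markers of cardiomyocytes and of other cell types moved with PE beside these genes. Of 8 cardiomyocyte markers, 2 were called higher and 0 lower in each arm. They were Myh6, with log2 changes of 0.89 in control and 0.71 in knockdown cells, and Ryr2, with 0.65 and 0.43. Summed cardiomyocyte TPM overlapped between PBS and PE in both arms. Of 10 endothelial markers, 9 were called higher and 1 lower in control cells, and 8 higher and 1 lower in knockdown cells. Their summed TPM was 229 to 248 in PBS control, 221 to 327 in PBS knockdown, 335 to 397 in PE control and 310.0 to 336 in PE knockdown libraries. Of 10 macrophage and leukocyte markers, 7 and 8 were called higher and 0 lower, with summed levels of 257 to 303, 252 to 297, 299 to 337 and 302 to 336 in the same order. Of 10 fibroblast markers, 7 and 8 were called lower and 0 higher, with summed levels of 2467 to 2651, 2580.0 to 3310.4, 1790.2 to 2031 and 1672 to 1807. Of 8 smooth muscle and pericyte markers, 4 were called higher and 3 lower in control cells, and 3 higher and 4 lower in knockdown cells. Their summed TPM was 1475 to 1574, 1256 to 1389.8, 2913.5 to 3021 and 2228 to 2322. Acta2 had the highest counts of this list, with a log2 change of 1.19 in control cells. The 3 called lower there were Myh11 (-1.52), Rgs5 (-1.76) and Pdgfrb (-0.80). Of 8 epicardial and mesothelial markers, 3 were called higher and 1 lower, and 3 higher and 4 lower, with summed TPM of 371 to 394, 456 to 497, 716 to 944 and 711 to 891. Krt18, with the highest mean count of this list, had a log2 change of 3.31 in control cells, and Upk3b, the 1 called lower there, -1.18. Such sums can follow 1 abundant gene and do not measure numbers of cells. The part of these shifts in the changes of Icam1, Vcam1 and the other members was not tested.

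The knockdown of lincRNA-p21 called none of the 10 genes, either in PE or in PBS. In PE, limma called 11.7% of all genes tested between the GapmeRs (4.57% higher, 7.14% lower). At an unadjusted p under 0.05, limma, edgeR and DESeq2 each counted 2 of the 10, Nfkb1 and Nfkbia, and limma counted 23.3% of all genes. Their log2 changes with the knockdown were -0.22 ± 0.10 for Nfkb1 (limma adjusted p = 0.16) and -0.22 ± 0.10 for Nfkbia (limma adjusted p = 0.172). Their PE knockdown values all lay below their PE control values, whereas those of Rela and Vcam1 all lay above, with log2 changes of 0.21 ± 0.13 (limma adjusted p = 0.358) and 0.19 ± 0.11 (limma adjusted p = 0.353). Such separation was seen for 16.1% of all genes in the lower and 14.4% in the higher direction. For the other 6, log2 changes ran from -0.13 (Nfkbiz) to 0.14 (Nfkb2). The 95% intervals of all 10 lay between -0.43 and 0.47, so log2 changes beyond these bounds were outside the interval of every one of them.

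Without PBS knockdown replicate 2, PE knockdown replicate 1 and PBS control replicate 2 together, Vcam1 was called higher with the knockdown in PE, at 0.23 (limma adjusted p = 0.0245), and 4672 genes in place of 2553 were called in all. This leaves 2 libraries in each of these 3 groups, and PBS knockdown replicate 1, which also stood far from its group, was kept.

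In PBS, the knockdown called 4.57% of all genes tested (1.36% higher, 3.21% lower) and 0 of the 10. None of the 10 passed an unadjusted p under 0.05 in limma, edgeR or DESeq2, while limma counted 17.5% of all genes. Log2 changes ran from -0.19 ± 0.10 for Birc3 (limma adjusted p = 0.382) to 0.14 ± 0.12 for Relb (limma adjusted p = 0.598), within 95% intervals of -0.41 to 0.39. Only for Birc3 were the groups apart, with all 3 knockdown libraries lower, as for 11.9% of all genes. The median of the 10 was 0.03 in PBS and 0.04 in PE, against 0.001 and 0.013 over all genes tested.

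The difference between the 2 PE responses was also called for 0 of the 10, and for 0.055% of all genes (12 in limma and 124 in DESeq2). It ran from -0.20 for Nfkbia to 0.23 for Birc3, and 0 of the 10 had an unadjusted p under 0.05 in limma, edgeR or DESeq2. The intervals lay between -0.50 and 0.54. The call of Vcam1 and Birc3 in one arm only is therefore not a tested difference between arms. These comparisons share libraries, so their values are given side by side.

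**Figure D2:**
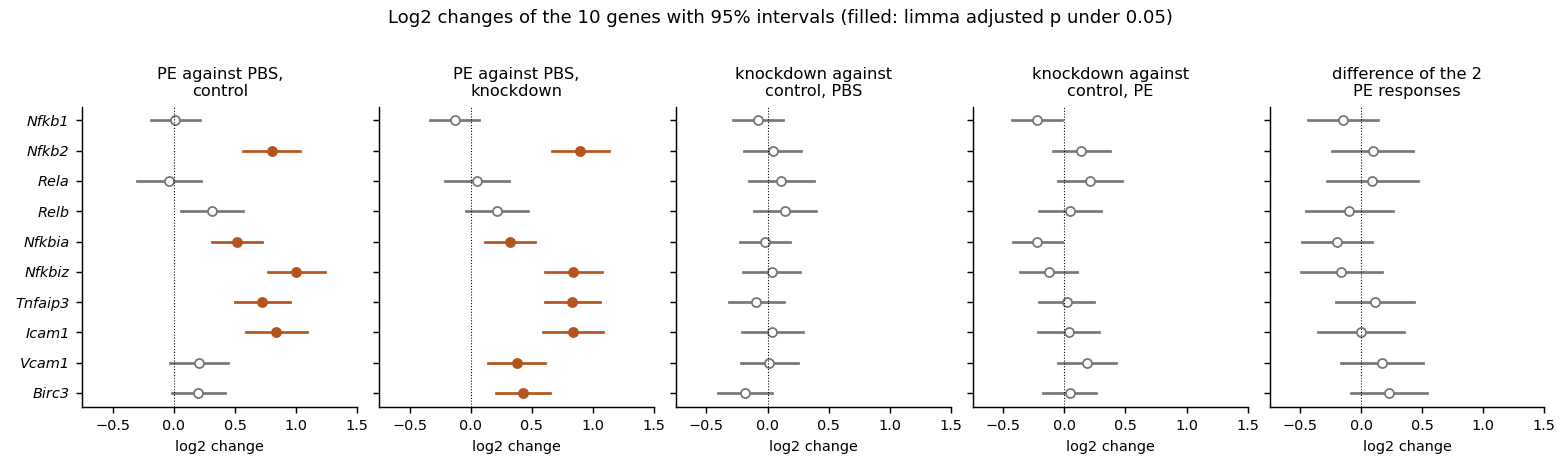
Log2 changes (x axis) of the 10 genes (y axis) in 5 comparisons, with 95% intervals; filled points have a limma adjusted p under 0.05. Filled points occur only in the 2 PE panels, 5 in control and 7 in knockdown cells, and the intervals of the knockdown and interaction panels lie between -0.50 and 0.54.

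Levels between genes were compared as TPM over the union of each gene's annotated exons. In PBS control libraries the order was Vcam1 (158 ± 15.5 TPM, SD, n = 3), Nfkbia (128 ± 9.85), Rela (99.1 ± 0.014), Nfkb2 (42.6 ± 4.66), Nfkb1 (22.2 ± 2.89), Relb (21.9 ± 2.04), Icam1 (18.7 ± 0.957), Nfkbiz (13.0 ± 1.84), Birc3 (10.8 ± 1.05) and Tnfaip3 (8.09 ± 0.876). Nfkb1 overlapped with Relb, and Nfkbiz with Birc3, while other neighbours did not overlap. In PE control libraries Nfkbia (164 ± 21.5) and Vcam1 (161 ± 3.18) overlapped, Rela (85.6 ± 5.62) and Nfkb2 (66.2 ± 9.99) followed, and Icam1 (29.7 ± 2.50), Relb (24.3 ± 3.47) and Nfkbiz (23.0 ± 1.47) overlapped as neighbours. Nfkb1 (19.9 ± 1.53) stood below Nfkbiz there, and Tnfaip3 (11.9 ± 1.55) and Birc3 (11.0 ± 1.22) overlapped at the bottom. With the knockdown and PE the first places were Vcam1 (191 ± 18.6), Nfkbia (145 ± 15.6), Rela (102 ± 5.99) and Nfkb2 (75.0 ± 5.90), all apart. In PBS knockdown libraries Vcam1 (175 ± 22.1) was again first, and Nfkbia (137 ± 7.55) overlapped with Rela (119 ± 31.3).

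**Figure D3:**
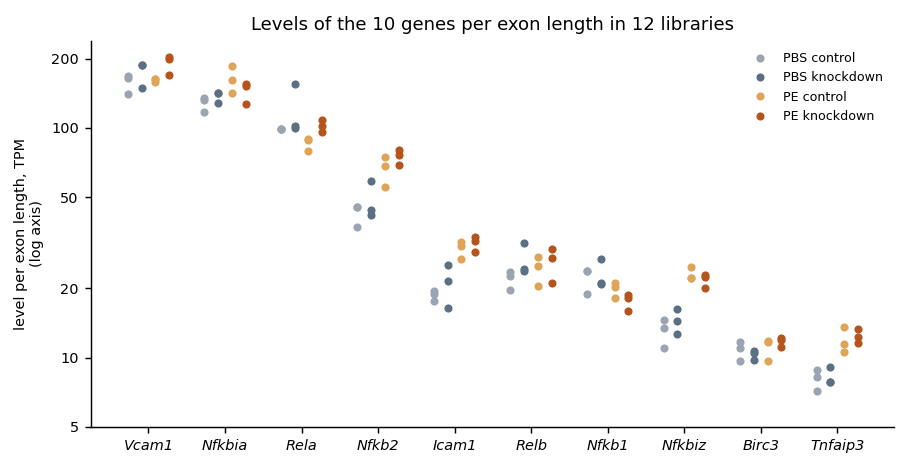
Level per exon length as TPM (y axis, log scale) of the 10 genes (x axis), with 1 point per library coloured by group. Vcam1, Nfkbia and Rela are the highest and Birc3 and Tnfaip3 the lowest, with means from 158 down to 8.09 TPM in PBS control.

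For Nfkbia, Icam1 and Vcam1, the genes most alike over the 12 libraries were taken by Pearson's r of log2(value + 1) among 12087 genes with a mean of at least 50. For Nfkbia they were Csrp3 (r = 0.969), Socs3 (0.969) and Ier3 (0.968). For Icam1 they were Cxcl3 (0.983), Plcg2 (0.976) and Cbfa2t3 (0.976), and for Vcam1 they were Chic2 (0.982), Ppp2ca (0.980) and Canx (0.976). The libraries fall into 4 designed groups, so these values describe shared group patterns and have no p.

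Beyond the 10 genes, 86 others of the pathway were followed in 4 lists. With PE in control cells 32 were called higher and 5 lower (43% of the 86), and in knockdown cells 31 and 7 (44.2%), beside 25.4% and 27.4% of all genes. With the knockdown in PE 4 were called higher and 13 lower (19.8%, beside 11.7% of all genes), and in PBS 0 and 2 (2.33%, beside 4.57%). Cell-type markers were read for the knockdown in PE as well. Called lower in limma were 1 of 8 cardiomyocyte (Ryr2), 2 of 10 endothelial (Pecam1 and Flt1) and 2 of 10 fibroblast markers (Col1a2 and Pdgfra). So were 2 of 8 smooth muscle and pericyte (Acta2 and Pdgfrb) and 1 of 8 epicardial and mesothelial markers (Tbx18). Of 10 macrophage and leukocyte markers 0 were called, and no marker of any list was called higher. Of all genes tested, 7.14% were called lower. All 3 PE knockdown libraries lay below all 3 PE control libraries for 6 of 8 cardiomyocyte and 6 of 10 fibroblast markers. They did so for 4 of 8 smooth muscle and pericyte and 3 of 8 epicardial and mesothelial markers. The same held for 2 of 10 endothelial and 1 of 10 macrophage and leukocyte markers. They lay above for 1 of 10 fibroblast and 2 of 10 macrophage and leukocyte markers. Of all genes tested, 16.1% were lower in this way and 14.4% higher. Summed cardiomyocyte TPM did not overlap, at 22810 to 30555 in PE control and 21024 to 21443 in PE knockdown libraries, in a list where Myh6 had the highest counts. Summed smooth muscle and pericyte TPM did not overlap either, in a list where Acta2 had the highest counts. The sums of the remaining lists overlapped. The part of these markers in the calls of the pathway genes was not tested. For the interaction limma called none of the 86. DESeq2 called Traf6, at a log2 difference of 0.53 (DESeq2 adjusted p = 0.0467), and its interaction calls were not read here for list genes that the text does not name.

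Among other targets of NF-kB, 18 of 26 were called higher and 1 lower in control cells, with a median of 0.99, and 16 higher and 2 lower in knockdown cells, with a median of 0.88. Ptgs2 (cyclooxygenase-2) rose from 58.5 to 66.5 in PBS control to 618 to 739 in PE control libraries, by 3.38 on the log2 scale (limma adjusted p = 9.89e-13), and by 3.33 in knockdown cells. Il6, a cytokine, had 6.61 to 11.2 in PBS control and 48.5 to 54.3 in PE control libraries, a log2 change of 2.40 (limma adjusted p = 0.000305). Its change in knockdown cells was 4.07, where PBS counts of 9.07, 1.81 and 0.917 met PE counts of 57.6 to 66.4, and the difference of the changes was not called (limma adjusted p = 0.402) unless PBS knockdown replicate 1 was left out, where it was 2.37 (limma adjusted p = 0.0499). Selp, an adhesion molecule of endothelium and platelets, rose by 2.25 and 2.34. The chemokine Cxcl1 rose by 1.86 in control cells, from 684, 826 and 812 to 3141, 2597 and 2725, and the chemokine Cxcl5 by 1.91 in knockdown cells. These calls held in all 22 alternatives tried.

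Of the ligands and receptors, 7 of 21 were called higher and 1 lower in each arm. Il1b rose by 3.43 and 3.44 from counts of 12.7 or fewer in PBS libraries, and Il1a by 2.31 and 2.12. Il1a had 46.5, 61.4 and 55.7 in PBS control and 276, 269.9 and 274 in PE control libraries, with no overlap. Tnfrsf12a, the TWEAK receptor, rose by 1.70 and 1.28, and Tnf by 0.65 in control cells (limma adjusted p = 0.00508). Il33 rose by 0.87 in knockdown cells.

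Fewer subunits, inhibitors, kinases and adaptors were called. Of 18 other subunits and inhibitors, 4 were called higher and 2 lower in each arm, beside 25.4% and 27.4% of all genes called. Bcl3, a nuclear IkB that partners p50 and p52, rose by 1.40 (limma adjusted p = 2.83e-05) and 1.20, from 157, 259 and 195 in PBS control to 603, 485 and 499 in PE control libraries. Pdlim2, which promotes Rela degradation in the nucleus, fell, with log2 changes of -0.89 and -0.97, and so did the deubiquitinase Usp21, with -0.49 and -0.52. Nkrf, a repressor, rose by 0.78 in knockdown cells. Zc3h12a, a ribonuclease that degrades cytokine mRNA, was called higher at 0.53 in control cells (limma adjusted p = 0.0165), and this call was lost without replicate 1 or 2 of either group, with an adjusted p of up to 0.0887 in limma.

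Of 21 kinases and adaptors, 3 were called higher and 1 lower in control cells, and 4 and 2 in knockdown cells. Of all genes tested, 25.4% and 27.4% were called, so these counts do not set the list apart. Its median log2 change was 0.015 in control and 0.12 in knockdown cells, against -0.005 and 0.005 over all genes tested. Tradd, the adaptor of the TNF receptor, fell, with log2 changes of -0.58 and -0.66, in all 22 alternatives. Most other calls here were less stable. In control cells Map3k14 (the NF-kB inducing kinase) at 0.53 kept its call in 18 of 22 alternatives, being lost without PBS control replicate 1 or PE control replicate 1 or 2 (limma adjusted p up to 0.103). Traf1, an adaptor, at 0.71 (limma adjusted p = 0.0497) kept it in 3 of 22 and lost it without any single library other than PBS control replicate 3 and PBS knockdown replicate 2 (up to 0.24). Traf3, a negative regulator of Map3k14, at 0.33 (limma adjusted p = 0.0483) kept it in 7 and lost it without any library other than PBS knockdown replicates 1 and 2 and PE knockdown replicate 1 (up to 0.2). In knockdown cells Map3k14 at 0.48 kept its call in 16, losing it without replicate 1 or 3 of PBS knockdown or replicate 1 or 2 of PE knockdown (limma adjusted p up to 0.144). Traf1 at 0.74 kept it in 15, losing it without replicate 1 or 3 of PBS knockdown or any PE knockdown library (up to 0.107). Tab1, which activates the kinase Map3k7, at -0.45 kept it in 20, losing it without replicate 2 of PBS knockdown or replicate 3 of PE knockdown (up to 0.0823).

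**Figure D4:**
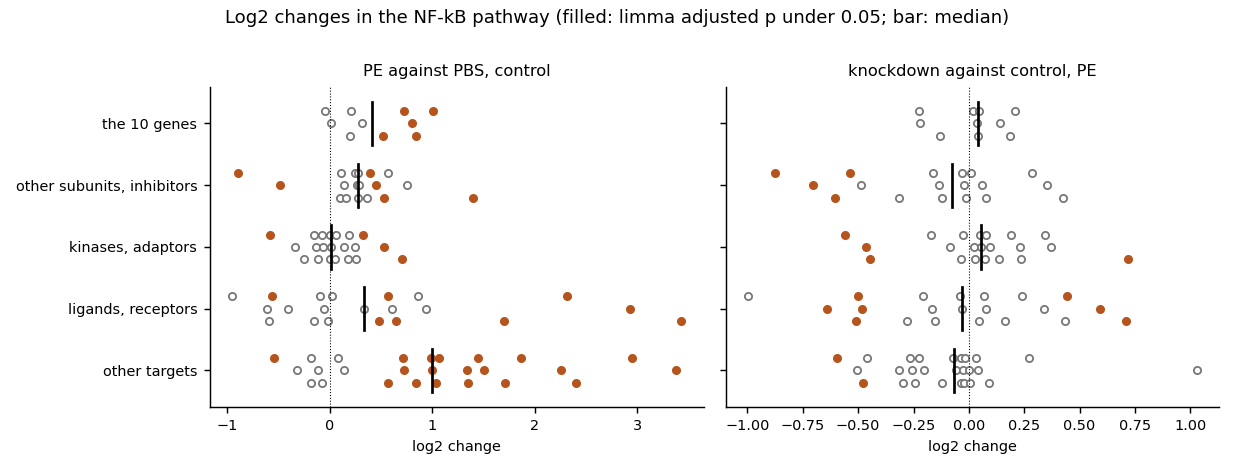
Log2 changes (x axis) of the 10 genes and 4 further pathway lists (y axis) for PE in control cells and for the knockdown in PE; each point is a gene, filled at a limma adjusted p under 0.05, and bars are medians. Other targets lie furthest right with PE, with a median of 0.99, while the medians of all 5 lists lie between -0.08 and 0.06 for the knockdown.

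With the knockdown, 2 genes outside the 10 were called lower in both treatments, Rel and Il1rap. Rel (c-Rel, a transactivating subunit) had 599.7, 533 and 551 in PBS control against 273, 346 and 335 in PBS knockdown libraries. In PE it had 557, 611 and 685 against 393, 312 and 306. The groups did not overlap, and Rel fell by 0.82 in PBS (limma adjusted p = 0.000529) and fell by 0.88 in PE (limma adjusted p = 9.36e-05), in all 22 alternatives. Il1rap, the IL-1 receptor accessory protein, had 449.7, 411 and 461 in PBS control against 331, 295 and 339 in PBS knockdown libraries. In PE it had 599, 716 and 653 against 484, 417 and 490.4, again with no overlap. Il1rap fell by 0.45 in PBS (limma adjusted p = 0.0234), a call kept in 18 of 22 alternatives. That call was lost without PBS control replicate 1 or 3 (limma adjusted p up to 0.11), after rescaling to the same total and with only the samples compared. In PE Il1rap fell by 0.50 (limma adjusted p = 0.00531), a call that was not followed through the alternatives.

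In PE, 4 more of the genes followed through the alternatives kept their calls between the GapmeRs in all 22. Not every called gene of the lists was followed. Traf6, the ubiquitin ligase of IL-1 and Toll-like receptor signalling, had 455, 459 and 488 with the control and 823, 737 and 753 with the lincRNA-p21 GapmeR, and rose by 0.72. Tlr3, a receptor for double-stranded RNA, rose by 0.71, from 183, 151 and 179 to 329, 260.2 and 254. Tlr4, the receptor for lipopolysaccharide, fell by 0.64, from 432, 435 and 415 to 258, 258 and 307. Ier3, an NF-kB target that is early-induced and anti-apoptotic, fell by 0.48, from 3204, 2990.2 and 2959 to 1942, 2313 and 2331. Groups did not overlap for any of these 4, and limma called none for the interaction, with an adjusted p of 0.202 for Traf6 (called by DESeq2, at 0.0467), 0.291 for Tlr3 and 0.326 for Ier3.

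The other calls in PE that were followed through the alternatives depended on single libraries or settings. Among kinases and adaptors, Chuk (IKK-alpha) at -0.56 kept its call in 17 of 22 alternatives, being lost without replicate 2 or 3 of PE control or 1 or 2 of PE knockdown (limma adjusted p up to 0.0738). Traf2 at -0.47 kept it in 12, losing it without the third library of either PBS group or replicate 1 or 2 of either PE group (up to 0.193). Traf5 at -0.45 kept it in 17, losing it without replicate 1 or 3 of PE control or 2 or 3 of PE knockdown (up to 0.137). Among inhibitors, Commd1 at -0.71 kept it in 9, losing it without PBS control replicate 1, PBS knockdown replicate 3, any PE control library or PE knockdown replicate 1 (limma adjusted p up to 0.227). Commd1 shares exon bases with Zrsr1 on the opposite strand, which had a similar mean count of 240.5 against 232. Pdlim2 at -0.54 kept its call in 18, losing it without replicate 1 or 3 of PE control or 3 of PE knockdown (up to 0.112), and Zc3h12a at -0.61 in 20, losing it without replicate 1 or 2 of PE control (up to 0.0863). Among ligands, Il33 at 0.59 kept it in 17, losing it without replicate 1 or 2 of PE control or any PE knockdown library (limma adjusted p up to 0.13). Tnf at -0.51 kept it in 12, losing it without replicate 1 or 3 of PBS control, any PE control library or replicate 2 or 3 of PE knockdown (up to 0.191). Cebpd, a target, kept it in 20 at -0.59, losing it without replicate 1 of PE control or 3 of PE knockdown (up to 0.127).

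**Figure D5:**
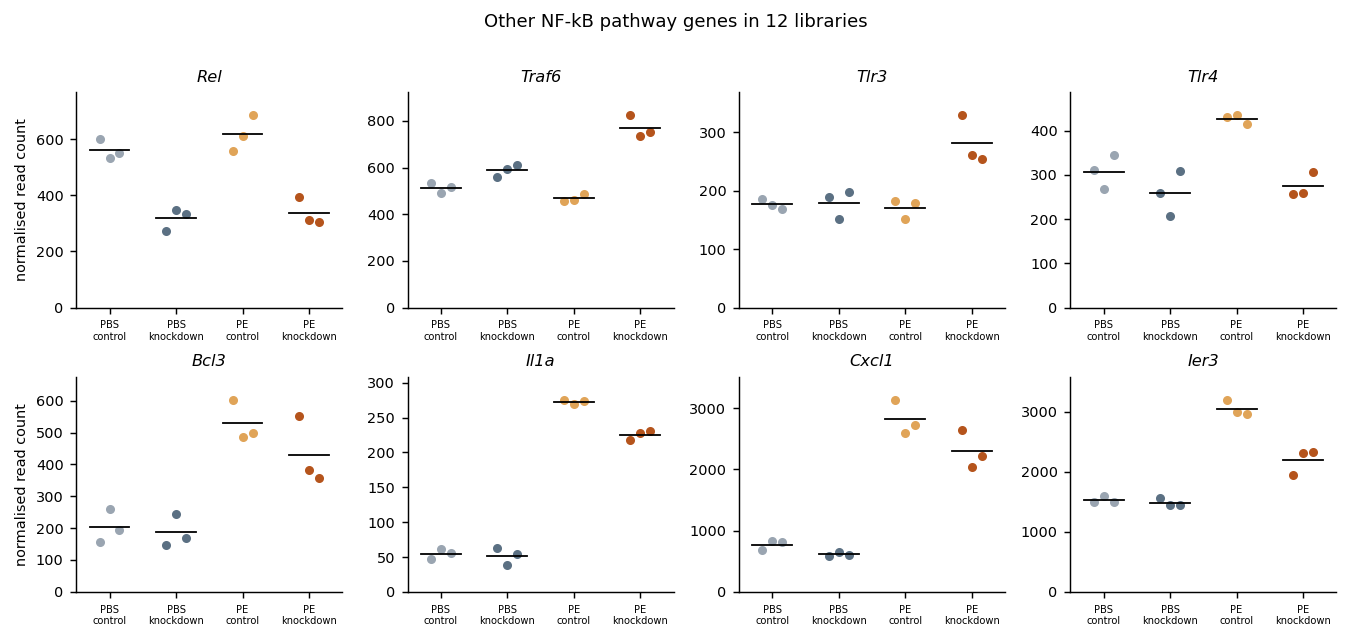
Normalised read counts (y axis, from 0 in each panel) of 8 other pathway genes in 12 libraries, grouped on the x axis; points are libraries and black bars are group means. Rel is lower in all 6 knockdown libraries than in all 6 control libraries, at 273 to 393 against 533 to 685, while Bcl3, Il1a and Cxcl1 are higher in every PE than in every PBS library.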

How the data were processed

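Polyadenylated RNA of 12 libraries was sequenced as paired-end reads. The submitters' processing notes name STAR, SAMtools, featureCounts and the build GRCm38.p6. Tool versions, the annotation and the use of strand are not given in the sources used here. A signal value per gene and library was deposited by the authors, for 55416 genes, and it is the read count over that library's size factor (0.921 to 1.11). Dividing by each column's step gave whole reads for 100% of values (tolerance 0.001). Symbols were matched for 52083 genes, and the others held 0.2% of the signal. Coordinates and exon lengths are GENCODE M21.

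From the deposited values, limma 3.58.1 (R 4.3.3) was fitted to log2(value + 1) of 21799 genes with a mean of at least 1, with 4 group means, a trended prior, two-sided tests and Benjamini-Hochberg adjustment at 0.05. On recovered reads, edgeR 4.0.16 called 5451 genes and DESeq2 1.42.0 called 5479 for PE in control cells, beside 5543 in limma. Scripts were tested on simulated data. Other alternatives were a pseudocount of 0.1, other filters and scaling, a replicate block, only the samples compared, and leaving out libraries, singly or 3 together. The members and lists were chosen with earlier results of these data known. Named pathway genes were the 4 called genes of each list and comparison with the largest change and a mean of at least 10, or the 2 lowest adjusted p where none was called. Further genes shown by library were chosen after their values were seen.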

Additional observations from a re-analysis of the deposited data

How the results depend on the processing

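For PE in control cells the 5 called members kept their calls in every alternative run, and without single libraries 5 to 6 were called (4263 to 6552 genes in all). In knockdown cells the count was 5 to 7 (4906 to 6129 genes) and 4 after rescaling to the same total. Without replicate 2 of both PBS groups and replicate 1 of PE knockdown together, 6 members were called in control and 8 in knockdown cells, Relb among them in both. These 3 were taken from earlier results; PBS knockdown replicate 1 lay further from its group than PBS control replicate 2 and was kept. With only the samples compared, Nfkbia (limma adjusted p = 0.0587) and Vcam1 (0.0777) lost their calls there, and Relb was called in control cells (0.024). No member was called for the knockdown or the interaction without any single library, with 1671 to 3502 genes called in PE, 510 to 1181 in PBS and 3 to 22 for the interaction. Only the samples compared gave 392 genes in PBS. Without the same 3 libraries, 4672 genes were called in PE, with 1 member, 1865 in PBS and 143 for the interaction, and DESeq2 called 124 for the interaction. Rescaling moved the share of lower calls for the knockdown from 60.9% to 42.3% in PE and from 70.2% to 51% in PBS. The cause of these shifts was not tested.

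Directions that turned were all of members not called. After rescaling, Nfkb1 was -0.15 with PE in control cells, Rela -0.092 with PE in knockdown cells, Nfkbia 0.044 with the knockdown in PBS and Icam1 0.013 for the interaction. Without those 3 libraries, values were -0.038 for Nfkb1 and 0.020 for Rela with PE in control cells, -0.11 for Nfkb2, -0.072 for Nfkbiz and -0.050 for Icam1 with the knockdown in PBS, and 0.018 for Nfkb1, 0.11 for Relb and 0.10 for Icam1 for the interaction. Without single libraries, ranges crossed 0 for PE in control cells in Nfkb1 (-0.038 to 0.050) and Rela (-0.080 to 0.020), and in knockdown cells in Rela (-0.038 to 0.22). For the knockdown in PE they did so in Tnfaip3 (-0.035 to 0.11), Relb (-0.048 to 0.14), Icam1 (-0.0089 to 0.077) and Birc3 (-0.027 to 0.079). In PBS they did so in Nfkbiz (-0.019 to 0.10), Vcam1 (-0.063 to 0.16), Icam1 (-0.071 to 0.20), Nfkb2 (-0.075 to 0.12), Rela (-0.060 to 0.20) and Nfkbia (-0.068 to 0.014), and for the interaction in Icam1 (-0.16 to 0.11), Nfkb2 (-0.0024 to 0.21) and Relb (-0.19 to 0.0029).

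Replicate numbers showed no clear pairing of the samples. Residual correlations of same-numbered libraries ran from -0.435 to 0.409, and 4 of 18 were above 0.1. Of 12 libraries, 3 correlated best with their own number. Residuals taken within groups of 3 cannot exclude a shared culture or day. With the replicate block, 5171 and 5708 genes were called for PE, 2269 and 822 for the knockdown in PE and PBS, and 12 for the interaction, with 5, 7, 0, 0 and 0 members.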
